A study of Mus musculus with 6 samples.

Results

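Follistatin, the activin subunits and a set of related ligands and receptors were followed by RNA sequencing in cultured mouse cortical neurons. The set held 10 genes of the 54232 counted: Fst, Fstl1, Fstl4, Fstl5, Inhba, Inhbb, Gdf10, Acvr1, Acvr1b and Acvr2a. They were chosen by name, with earlier results of these libraries known, so their values are a description and no p-value is given for them. All 10 passed the filter on low counts, with 259 to 7029 counts in each library.

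The cells were wildtype cortical neurons of CD1, an outbred mouse stock, and each of 3 groups had 2 libraries, named repeat 1 and repeat 2. PA + PS2 carried IKVAV, a peptide sequence from laminin, and PEDOT-S_OH in its library names (PEDOT is a conducting polymer), PA carried IKVAV alone, and the control carried PDL. The treatment label named a peptide amphiphile in all 6 libraries, the control among them, and PS2 was not spelled out. Age of the donor animals, culture time and dose were not given in the sources used here. The labels did not say that the repeats were separate cultures, so the errors measure the spread between these libraries, which may be technical. The 3 comparisons ask what PA with PS2 changed against the control, what PS2 added to PA, and what PA alone changed. Each pair of comparisons shares a group, so their values are set side by side and not counted as separate evidence.

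Activins are dimers of the inhibin beta subunits, and they signal by joining a type II receptor kinase to a type I receptor kinase, which then phosphorylates Smad proteins. Follistatin is a secreted protein that wraps around activin and keeps it from its receptors. In cortical neurons activin A is known as a signal whose beta A subunit gene responds to synaptic activity, and activin has been tied to dendritic spines and to survival after injury.

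Libraries held 30714311 to 33923681 counts. Levels are in CPM, counts per 1000000 counts scaled by the TMM method, and 1 CPM stood for 30.7 to 33.9 counts. The 9 neuron marker genes summed to 5958 and 5588 CPM in PA + PS2, 5724 and 5839 CPM in PA, and 5644 and 6023 CPM in the control. These sums overlapped between the groups, with Map2 and Tubb3 making up most of each. Within the list Gad1, of inhibitory neurons, had 306 and 272 CPM in PA + PS2, 392 and 318 CPM in PA, and 382 and 340 CPM in the control, and passed as lower over PA with the repeat number in the model. Neurod6, of excitatory neurons, had 389 and 409 CPM in PA + PS2, 344 and 333 CPM in PA, and 315 and 340 CPM in the control, and did not pass. The PA + PS2 libraries thus lay below the other 4 for Gad1 and above them for Neurod6. Gad2 and Slc17a7, of inhibitory and excitatory neurons, did not stand apart from the other 4 in this way. Gad2 had 101.1 and 81.85 CPM in PA + PS2, 122.4 and 100.9 CPM in PA, and 110.2 and 103 CPM in the control. For Slc17a7 the levels were 64.5 and 58.6 CPM in PA + PS2, 62.2 and 84.3 CPM in PA, and 59.5 and 58.7 CPM in the control. Markers of other cells were present at lower sums, which are given beside the results they move with.

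Fst, which encodes follistatin, had 51.5 and 42.3 CPM in PA + PS2 (repeats 1 and 2), 26.7 and 17.7 CPM in PA, and 24.9 and 17.4 CPM in the control. Both PA + PS2 libraries lay above the other 4, whose ranges overlapped between PA and control. The means were 46.9 ± 6.46 CPM in PA + PS2, 22.2 ± 6.38 CPM in PA and 21.2 ± 5.27 CPM in the control (SD, n = 2 each). The log2 fold change was 1.15 ± 0.24 (SE) for PA + PS2 over control, 1.07 ± 0.24 for PA + PS2 over PA and 0.08 ± 0.24 for PA over control. Repeat 1 was above repeat 2 in every group. In bulk RNA such as this, fewer cells of a type and less RNA per cell cannot be told apart. Taken within a repeat, the PA + PS2 minus control difference was 1.05 in repeat 1 and 1.28 in repeat 2 on the log2 scale. With the repeat number in the model the fold change became 1.17 ± 0.11, or 2.25-fold, which was the 172nd highest among 17299 genes tested. The gene lies at chr13:114452290-114458951 on the minus strand (GRCm38, GENCODE M21), and 115 of its exon bases, 2.51%, are shared with the antisense gene Gm47040, which had 0 to 3 counts in each library.

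**Figure D1:**
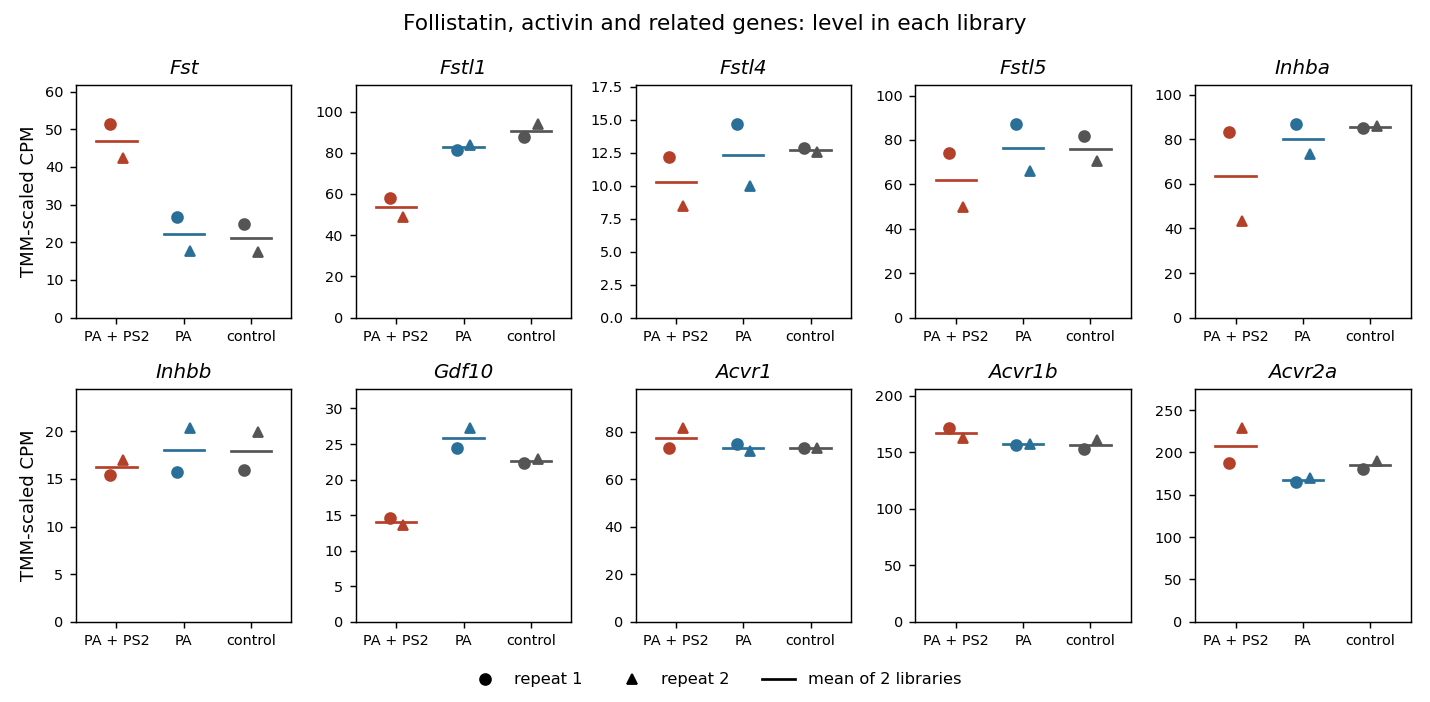
Level of each of the 10 genes in each library, in TMM-scaled CPM on axes that start at 0; circles are repeat 1, triangles repeat 2 and lines the mean of 2 libraries. Both PA + PS2 libraries stand above the other 4 for Fst (51.5 and 42.3 CPM) and below them for Fstl1 (57.9 and 49.0 CPM) and Gdf10 (14.5 and 13.6 CPM), and the 2 PA + PS2 libraries of Inhba lie far apart.

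Fstl1 encodes a secreted glycoprotein of the SPARC family with a follistatin-like domain. It had 57.9 and 49.0 CPM in PA + PS2, 81.5 and 83.8 CPM in PA, and 87.5 and 94.1 CPM in the control. Both PA + PS2 libraries lay below all others, and both PA libraries lay below the control libraries. The log2 fold change was -0.76 ± 0.10 for PA + PS2 over control, -0.63 ± 0.10 for PA + PS2 over PA and -0.13 ± 0.10 for PA over control. The PA + PS2 minus control difference was -0.59 in repeat 1 and -0.94 in repeat 2. Fst and Fstl1 therefore differed from the control in opposite directions in both repeats. Fstl1 lies at chr16:37776873-37836514 on the plus strand.

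The other follistatin-like genes, Fstl4 and Fstl5, encode secreted proteins that join a follistatin-like domain to immunoglobulin-like domains. Fstl4 had 12.2 and 8.43 CPM in PA + PS2, 14.7 and 10.01 CPM in PA, and 12.8 and 12.5 CPM in the control. The PA libraries spanned those of the control, and the PA + PS2 mean lay below the control mean by less than the SD of PA + PS2. Its log2 fold change for PA + PS2 over control was -0.29 ± 0.24. Fstl5 had 74.3 and 49.8 CPM in PA + PS2, 87.3 and 65.8 CPM in PA, and 81.8 and 70.5 CPM in the control, with overlapping groups and a log2 fold change of -0.29 ± 0.22. For Fstl5, repeat 1 was above repeat 2 in all 3 groups, and within repeats the PA + PS2 minus control difference was -0.14 and -0.50. Fstl4 lies at chr11:52764634-53188538 and Fstl5 at chr3:76074270-76710019, both on the plus strand.

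Promoter windows of 250 bases before the RefSeq start (GRCm38.p6) were found for 9 of the 10 genes, in 10 entries since Fstl5 has 2 starts. They were searched on both strands for the cAMP response element TGACGTCA, its shorter form CGTCA, the AP-1 site TGANTCA, the Smad element GTCTAGAC, the shorter Smad-binding core CAGAC and the TATA box TATAAA; the long and short forms of an element overlap. Among all 32851 windows of this length, 1.55% held TGACGTCA, 17.8% CGTCA, 6.75% TGANTCA, 0.167% GTCTAGAC, 42.2% CAGAC and 12.4% TATAAA. Of the 10 entries, 1 held TGACGTCA, 2 held CGTCA, 5 held CAGAC and 2 held TATAAA, while 0 held TGANTCA or GTCTAGAC. The full cAMP response element stood in the window of Fstl4, 77 bases before the RefSeq start. The GENCODE gene starts upstream of the RefSeq start, within the element, which therefore spans that annotated start. The element and the stretch around it (chr11:52764618-52764647, plus strand) are shown because this element is known from activity-induced neuronal genes; the capitals mark it.
Fstl4: ggcccggagggTGACGTCAcgggctccggt
A match is a run of letters and not a bound site, and the Fstl4 libraries overlapped in 2 of the 3 comparisons.

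Gdf10 encodes a ligand of the TGF-beta superfamily, also called BMP3B, that is close to Bmp3. It had 14.5 and 13.6 CPM in PA + PS2, 24.5 and 27.3 CPM in PA, and 22.3 and 22.9 CPM in the control. Both PA + PS2 libraries lay below the other 4, and both PA libraries lay above the control. The log2 fold change was -0.68 ± 0.13 for PA + PS2 over control, -0.89 ± 0.13 for PA + PS2 over PA and 0.21 ± 0.12 for PA over control. Within repeats, PA + PS2 minus control was -0.61 and -0.75. Bmp3 itself had 29.3 and 16.6 CPM in PA + PS2, 23.4 and 28.8 CPM in PA, and 22.2 and 21.98 CPM in the control, with the PA + PS2 libraries on both sides of the rest. The log2 fold change of Bmp3 for PA + PS2 over control was 0.06 ± 0.26 without the repeat number in the model (edgeR adjusted p = 0.999).

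Inhba encodes the beta A subunit of activin A. It had 83.4 and 43.5 CPM in PA + PS2, 87.01 and 73.26 CPM in PA, and 85.2 and 85.9 CPM in the control. A single library, PA + PS2 repeat 2, was low, and PA + PS2 repeat 1 lay just below the control libraries. The log2 fold change for PA + PS2 over control was -0.43 ± 0.31, and within repeats it was -0.03 in repeat 1 and -0.98 in repeat 2. Inhbb, the beta B subunit of activin B, had 15.5 and 17.0 CPM in PA + PS2, 15.7 and 20.4 CPM in PA, and 15.9 and 19.9 CPM in the control. Its groups overlapped, with a log2 fold change of -0.14 ± 0.18, and repeat 1 was below repeat 2 in each group, the opposite of Fst. Without PA + PS2 repeat 1 the Inhba log2 fold change over control was -0.98, a value that rests on PA + PS2 repeat 2 alone. With both libraries Inhba did not pass the adjusted threshold.

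The windows before the starts of the 3 ligand genes are shown because Gdf10, Inhba and Inhbb are the ligands of the set and differ in base composition. Capitals mark the TATA box, the short cAMP response element, the AP-1 site or the Smad-binding core on either strand. Gdf10 (chr14:33923337-33923586, plus strand) is 78.8% G or C, Inhba (chr13:16011601-16011850, plus strand) 43.2% and Inhbb (chr1:119422249-119422498, minus strand) 68.0%, against a median of 52.4% over all windows.
Gdf10: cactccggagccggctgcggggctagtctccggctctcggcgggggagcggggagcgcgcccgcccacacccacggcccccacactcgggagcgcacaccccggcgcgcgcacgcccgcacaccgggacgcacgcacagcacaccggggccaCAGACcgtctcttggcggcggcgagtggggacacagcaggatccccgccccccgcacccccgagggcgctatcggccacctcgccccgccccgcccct
Inhba: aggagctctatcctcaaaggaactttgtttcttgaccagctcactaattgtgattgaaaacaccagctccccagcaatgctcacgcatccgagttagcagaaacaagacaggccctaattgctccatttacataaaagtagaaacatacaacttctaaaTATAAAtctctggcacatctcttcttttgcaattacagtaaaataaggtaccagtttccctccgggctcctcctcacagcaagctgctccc
Inhbb: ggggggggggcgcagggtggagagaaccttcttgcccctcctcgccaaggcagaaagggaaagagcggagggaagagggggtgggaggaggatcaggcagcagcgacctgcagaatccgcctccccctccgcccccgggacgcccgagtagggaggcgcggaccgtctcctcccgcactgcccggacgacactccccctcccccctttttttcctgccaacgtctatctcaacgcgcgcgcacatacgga
The Inhba window held TATAAA 91 bases before the start, the Gdf10 window held CAGAC 98 bases before it, and the Inhbb window held none of the elements searched. These ligand genes lie at chr14:33923587-33937983 (Gdf10), chr13:16011851-16031621 (Inhba) and chr1:119415465-119422248 (Inhbb).

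The 3 receptors had log2 fold changes of 0.08 to 0.17 for PA + PS2 over control. Acvr1, which encodes the type I receptor ALK2, had 73.3 and 81.6 CPM in PA + PS2, 74.8 and 71.7 CPM in PA, and 73.3 and 73.2 CPM in the control. Its groups overlapped, with a log2 fold change of 0.08 ± 0.08 for PA + PS2 over control. Acvr1b, which encodes the activin type I receptor ALK4, had 172 and 163 CPM in PA + PS2, 157 and 158 CPM in PA, and 152 and 161 CPM in the control. Both PA + PS2 libraries of Acvr1b lay above the other 4, by little, and the log2 fold change over control was 0.10 ± 0.07. Acvr2a, a type II receptor for activin, had 187 and 229 CPM in PA + PS2, 166 and 169 CPM in PA, and 181 and 189 CPM in the control. PA + PS2 overlapped the control and lay above PA, with a log2 fold change of 0.17 ± 0.10 over control and 0.31 ± 0.10 over PA, while PA over control gave -0.13 ± 0.10. Acvr2a shares 446 exon bases, 7.84%, with Orc4 on the opposite strand, which had 1493 to 1769 counts, and the strand setting of the counting was not given in the sources used here. The receptors lie at chr2:58388644-58567157 (Acvr1), chr15:101174067-101213684 (Acvr1b) and chr2:48814109-48903269 (Acvr2a).

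**Figure D2:**
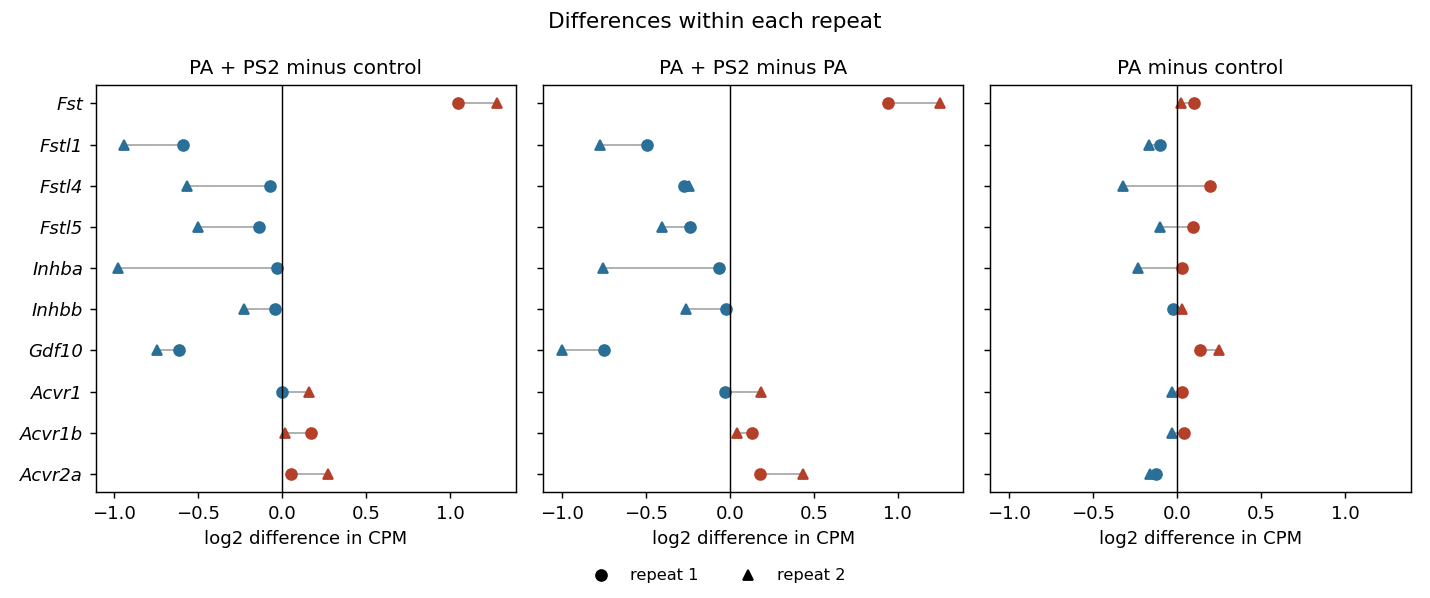
Differences in log2 CPM within repeat 1 and within repeat 2 for each gene in the 3 comparisons; circles are repeat 1, triangles repeat 2, and red marks a difference above 0 and blue one below. For PA + PS2 minus control, Fst is at 1.05 and 1.28, Fstl1 at -0.59 and -0.94, Gdf10 at -0.61 and -0.75, and Inhba at -0.03 and -0.98.

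Across all genes the edgeR quasi-likelihood test without the repeat number called 0 of 17299 genes in each comparison (0%), and so 0 of the 10. At an unadjusted p under 0.05 it had 1178 genes (6.81%) for PA + PS2 over control, 1332 (7.7%) for PA + PS2 over PA and 103 (0.595%) for PA over control, of which 3, 4 and 0 were among the 10. With the repeat number in the model, 121 genes passed for PA + PS2 over control (0.699%), with 21 higher (0.121%) and 100 lower (0.578%). For PA + PS2 over PA 263 passed (1.52%), with 35 higher (0.202%) and 228 lower (1.32%), and for PA over control 0 passed (0%). Of the 10 genes, 3 passed in each of the first pair of comparisons, Fst higher and Fstl1 and Gdf10 lower, and 0 passed for PA over control. DESeq2 without the repeat number called the same 3 genes, against 130 of 13945 genes (0.932%) for PA + PS2 over control and 200 of 13274 (1.51%) for PA + PS2 over PA. Its shares in the direction of the 3 genes were 0.143% higher and 0.789% lower for PA + PS2 over control, and 0.196% higher and 1.31% lower for PA + PS2 over PA. DESeq2 with the repeat number also called these 3, against 2% of genes (0.301% higher, 1.7% lower) for PA + PS2 over control, 2.33% (0.365% higher, 1.97% lower) for PA + PS2 over PA, and 0.00578%, all lower and 0 of the 10, for PA over control. Since the genes were chosen with these contrasts known, nothing is read from these shares.

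Single libraries decided some of these calls. The 10 genes were chosen with these contrasts known, so passing in a fit describes them and is not support. With the repeat number in the model and 1 library left out, Fst passed in all 6 fits for PA + PS2 over control, Fstl1 failed without control repeat 2, and Gdf10 failed without PA + PS2 repeat 2, control repeat 1 or control repeat 2. For PA + PS2 over PA, Fst passed in all 6, and Fstl1 and Gdf10 failed without PA + PS2 repeat 2. Groups that did not overlap in CPM were common: PA + PS2 stood apart from the other 4 libraries in 4 of the 10 genes (Fst and Acvr1b above, Fstl1 and Gdf10 below) and in 20.5% of all genes tested (9.36% above, 11.2% below). The corresponding count was 6 of 10 (2 above, 4 below) against 33.2% (15.8% above, 17.4% below) for PA + PS2 over control. It was 5 of 10 (3 above, 2 below) against 35.3% (17.4% above, 17.9% below) for PA + PS2 over PA, and 3 of 10 (1 above, 2 below) against 21.8% (10.7% above, 11.2% below) for PA over control. The median log2 fold change of the 10, with the repeat number in the model, was -0.22 for PA + PS2 over control, -0.21 for PA + PS2 over PA and 0.0084 for PA over control, beside medians over all genes of 0.010, 0.0012 and 0.0077.

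Levels between genes can be compared only per length, as CPM per kb of annotated exon, averaged over the 6 libraries. Acvr1b was at 36.3 CPM per kb, Acvr2a at 32.9, Acvr1 at 15.5, Fstl1 at 15.4, Inhba at 11.95, Fstl5 at 7.73, Fst at 6.56, Inhbb at 4.09, Gdf10 at 4.003 and Fstl4 at 2.69. Of neighbours in that order, Acvr2a and Acvr1 alone had ranges that did not overlap over the 6 libraries. The ratio of Fst to Inhba per kb was 0.860 and 1.36 in PA + PS2, 0.428 and 0.336 in PA, and 0.407 and 0.282 in the control. Both PA + PS2 ratios lay above the other 4, and in repeat 2 Inhba was low as well as Fst high. The ratio of Fst to Inhba plus Inhbb was 0.672 and 0.855 in PA + PS2, 0.336 and 0.237 in PA, and 0.317 and 0.209 in the control. Inhba over Inhbb was 3.59 and 1.71 in PA + PS2, 3.69 and 2.40 in PA, and 3.56 and 2.87 in the control, higher in repeat 1 in each group.

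**Figure D3:**
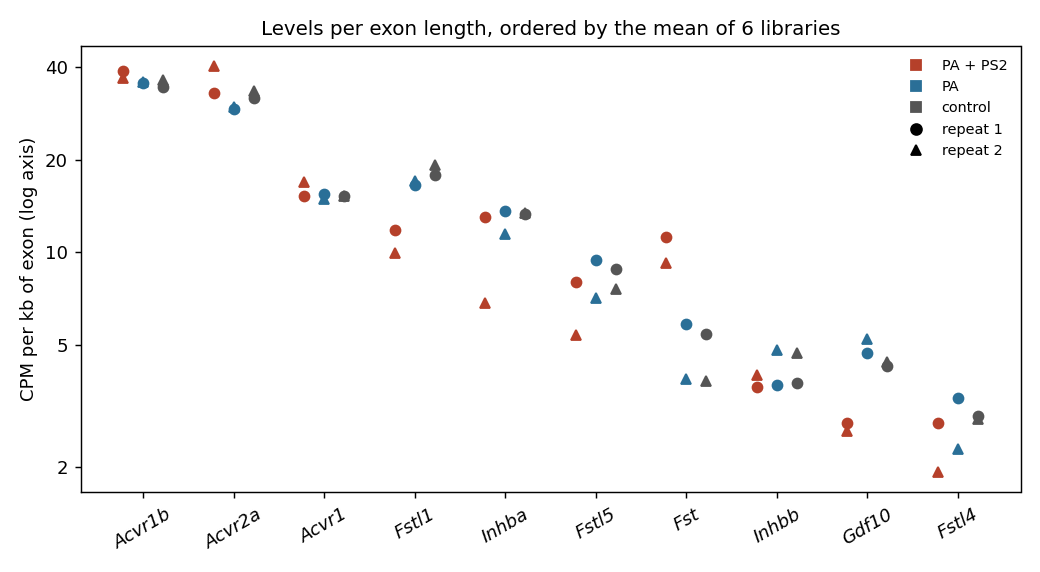
Level of each gene per kb of annotated exon in the 6 libraries, on a log axis, in the order of the mean over all libraries. The receptors Acvr1b (36.3 CPM per kb) and Acvr2a (32.9) lie above the rest, and Fst has 10.2 CPM per kb in PA + PS2, 4.84 in PA and 4.61 in the control.

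The genes most like Fst over the 6 libraries, by the smallest Euclidean distance of centred log2 CPM among 10765 genes, were 2210008F06Rik (0.599), Slc16a6 (0.675), Rxrg (0.687), Tmtc1 (0.715) and Arrdc2 (0.749). Slc16a6 had 26.8 and 29.6 CPM in PA + PS2, 20.2 and 16.8 CPM in PA, and 19.0 and 15.4 CPM in the control. Those most like Fstl1 lay closer: Diaph3 (0.122), Cdh20 (0.160), Anxa5 (0.201), Pnoc (0.209) and Maff (0.210). Cdh20 had 8.62 and 7.16 CPM in PA + PS2, 12.3 and 14.0 CPM in PA, and 14.0 and 15.0 CPM in the control.

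The wider pathway was read from 8 lists by role, 82 genes of which 63 passed the filter on low counts. Without the repeat number 0 of 63 passed the adjusted threshold in any comparison, and 18, 11 and 0 had an unadjusted p under 0.05 for PA + PS2 over control, PA + PS2 over PA and PA over control, beside 6.81%, 7.7% and 0.595% of all genes. With the repeat number 1 of 63 fell and 0 rose for PA + PS2 over control, and the same for PA + PS2 over PA, beside 0.699% and 1.52% of all genes. Fold changes and errors of the pathway genes from here on are those with the repeat number in the model unless stated otherwise. The median log2 fold change was -0.0047 for PA + PS2 over control. The gene was Bmp7, a BMP ligand, at 0.636 and 0.423 CPM in PA + PS2, 2.06 and 3.39 CPM in PA, and 2.42 and 2.63 CPM in the control. Its log2 fold change was -2.23 ± 0.39 over control (edgeR adjusted p = 0.0287 with the repeat number, 0.384 without; DESeq2 adjusted p = 0.00426) and -2.33 ± 0.40 over PA (edgeR adjusted p = 0.0136 with the repeat number, 0.245 without). With the repeat number in the model, the Bmp7 call over control was lost without PA + PS2 repeat 2, control repeat 1 or control repeat 2, and the call over PA without PA + PS2 repeat 2. Over the 26 alternatives Bmp7 passed in 10 over control and in 13 over PA.

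Apart from Bmp7, no ligand on the lists passed the adjusted threshold in the edgeR fits over all 6 libraries with the filter and TMM. Of 6 TGF-beta family ligands tested, 2 lay above 0 and 4 below; Gdf11, a ligand that follistatin also binds, had 42.4 and 35.5 CPM in PA + PS2, 43.1 and 43.8 CPM in PA, and 44.6 and 44.6 CPM in the control (edgeR adjusted p = 0.506 over control with the repeat number). Inha, the inhibin alpha subunit, had 30.6 and 20.4 CPM in PA + PS2, 26.5 and 20.02 CPM in PA, and 29.4 and 20.3 CPM in the control, with repeat 1 above repeat 2 in each group as for Fst. Tgfb2 had a log2 fold change of 0.16 ± 0.12 over control. Of 7 BMP ligands 5 lay above 0 and 2 below; Bmp6 had 4.48 and 2.38 CPM in PA + PS2, 9.56 and 6.65 CPM in PA, and 6.10 and 8.14 CPM in the control (log2 fold change -1.10 ± 0.29, edgeR adjusted p = 0.131 with the repeat number), and Bmp2 had a log2 fold change of 0.19 ± 0.26. Bmp6 passed as lower in both PA + PS2 comparisons with no filter, with the repeat number in DESeq2, and with the repeat number and only the 2 groups compared.

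Among receptors and Smads no gene passed in those fits. Over control, Smad1 passed as higher with no filter. With the repeat number and only the 2 groups compared, Tgfbr1 and Smad1 passed as higher and Tgfbr2 as lower. In the fit over all 6 libraries, Tgfbr2 had a log2 fold change of -1.32 ± 0.35 over control (edgeR adjusted p = 0.122 with the repeat number). Tgfbr1, the TGF-beta type I receptor, had 61.9 and 55.6 CPM in PA + PS2, 49.4 and 45.9 CPM in PA, and 46.8 and 47.3 CPM in the control (log2 fold change 0.32 ± 0.09 over control, edgeR adjusted p = 0.127 with the repeat number). Bmpr1a had a log2 fold change of -0.20 ± 0.08, Bmpr1b of -0.0047 ± 0.28, Bmpr2 of 0.03 ± 0.07, Acvr2b of 0.0031 ± 0.15 and Bambi, a pseudoreceptor, of -0.15 ± 0.26. All 8 Smads were tested, and 7 lay above 0 with a median of 0.22, against 0.010 over all genes. Smad1, which carries BMP signals, had 76.0 and 92.3 CPM in PA + PS2, 74.1 and 66.8 CPM in PA, and 58.7 and 71.2 CPM in the control (edgeR adjusted p = 0.148 with the repeat number). Smad4, the shared partner, had a log2 fold change of 0.19 ± 0.08 and Smad5 of 0.25 ± 0.09.

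Of 11 secreted antagonists tested 5 lay above 0 and 6 below. Twsg1 had a log2 fold change of 0.0054 ± 0.09 and Nbl1 of -0.30 ± 0.14. Of 10 other proteins with a follistatin domain 4 lay above 0 and 6 below, among them Spock2 at -0.18 ± 0.07, Agrn at -0.04 ± 0.07 and Tmeff1 at 0.01 ± 0.07. Of 10 Smad target genes 4 lay above 0 and 6 below, with Skil at 0.21 ± 0.08, Ski at 0.06 ± 0.06 and Id2 at 0.34 ± 0.13. Without the repeat number, Id2 was at 0.37 ± 0.35 and Agrn at -0.04 ± 0.17. Sparc and Ccn2, named after their values were seen, were lower in PA + PS2 than in the control. Their log2 fold changes over control were -1.48 ± 0.37 and -1.87 ± 0.34. Both passed as lower in DESeq2 without the repeat number for PA + PS2 over control (adjusted p = 0.0425 and 5.95e-06). They did not pass in edgeR with the repeat number (adjusted p = 0.357 and 0.0889). Both also passed as lower with the repeat number in DESeq2 and in limma-voom, in both PA + PS2 comparisons.

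**Figure D4:**
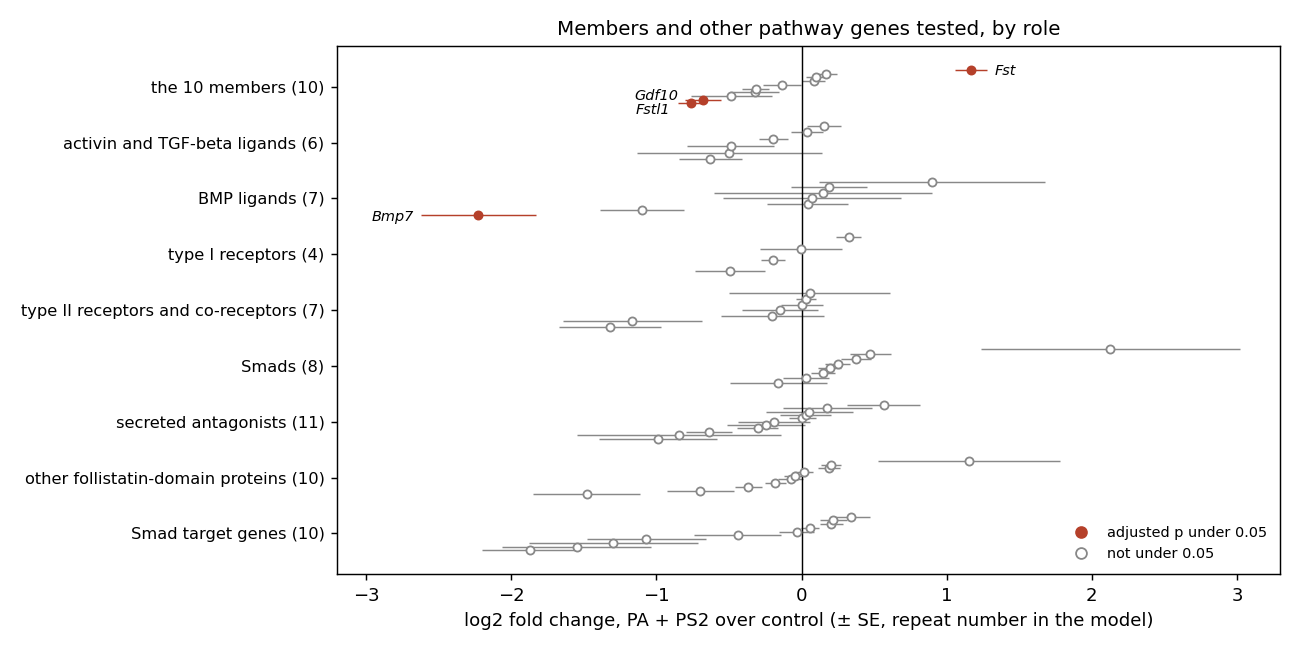
Log2 fold change of PA + PS2 over control with the repeat number in the model, with standard errors, for the 10 genes and for the other pathway genes tested, in rows by role. Filled points passed an adjusted p of 0.05: Fst higher, and Fstl1, Gdf10 and Bmp7 lower. The 10 genes were chosen with this contrast known.

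Marker lists of other cells moved with the same groups. Beside the lower Fstl1, Gdf10 and Bmp7, the 6 mural cell markers summed to 40.6 and 26.5 CPM in PA + PS2, 97.3 and 69.8 CPM in PA, and 69.6 and 110 CPM in the control. Of the 4 tested, 1, Cspg4, passed as lower over control with the repeat number in the model. Rgs5, Acta2 and Notch3 did not pass in that fit (edgeR adjusted p = 0.0609, 0.499 and 0.580). The call over control is thus of Cspg4 and not of mural cells. Over PA, 2 of the 4 tested passed as lower with the repeat number in the model. All 4 lay below 0 in both comparisons, with a median log2 fold change of -1.29 over control and -1.61 over PA. The 5 oligodendrocyte precursor markers summed to 7.31 and 6.25 CPM in PA + PS2, 20.4 and 117 CPM in PA, and 29.99 and 75.86 CPM in the control. All 5 lay below 0 over control and over PA with the repeat number in the model, and 0 of them passed. The 7 progenitor and dividing cell markers summed to 70.0 and 87.9 CPM in PA + PS2, 134 and 267 CPM in PA, and 117 and 219 CPM in the control. Of the 7, 3, Cdk1, Nes and Hes1, passed as lower over control with the repeat number in the model. Marker genes named singly were chosen after their values were seen. The PA + PS2 sums of these 3 lists lay below those of the other 4 libraries. The 8 fibroblast and meningeal markers summed to 63.8 and 16.1 CPM in PA + PS2, 84.9 and 43.3 CPM in PA, and 75.9 and 57.6 CPM in the control, and overlapped; like Inhba, this sum was lowest in PA + PS2 repeat 2. The part of these cells in the results was not tested.

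Beside the higher Fst, the 6 myelinating oligodendrocyte markers summed to 65.2 and 95.3 CPM in PA + PS2, 48.0 and 37.2 CPM in PA, and 38.1 and 34.4 CPM in the control. Both PA + PS2 sums lay above the others. The 10 astrocyte markers summed to 215 and 261 CPM in PA + PS2, 247 and 448 CPM in PA, and 231 and 313 CPM in the control, and overlapped; Slc1a2 alone had 164 to 214 CPM. Of the 10, 7 lay below 0 over control, with a median of -0.64, and 9 over PA, with a median of -1.01. Gja1, Aldoc and Sox9 passed as lower over PA with the repeat number in the model, and 0 passed over control. Endothelial markers summed to 4.69 to 10.2 CPM and microglial markers to 2.77 to 4.46 CPM over the 6 libraries. No marker was at 0 in all 6 libraries, while 5 of 6 microglial, 3 of 6 endothelial, 2 of 6 mural, 2 of 8 fibroblast and 1 of 10 astrocyte markers were under 1 CPM in all 6. The part of these cells in the Fst, Fstl1 and Gdf10 differences was not tested.

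Beside Inhba, 16 genes known to be induced by neuronal activity summed to 1224 and 1097 CPM in PA + PS2, 1396 and 1646 CPM in PA, and 1558 and 1561 CPM in the control. Both PA + PS2 sums lay below the others, and 15 of the 16 lay below 0 with a median of -0.50, of which 1, Scg2, passed as lower over control with the repeat number in the model. Bdnf had 46.9 and 37.6 CPM in PA + PS2, 57.9 and 76.9 CPM in PA, and 67.9 and 64.5 CPM in the control. The part of neuronal activity in the Inhba values was not tested.

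**Figure D5:**
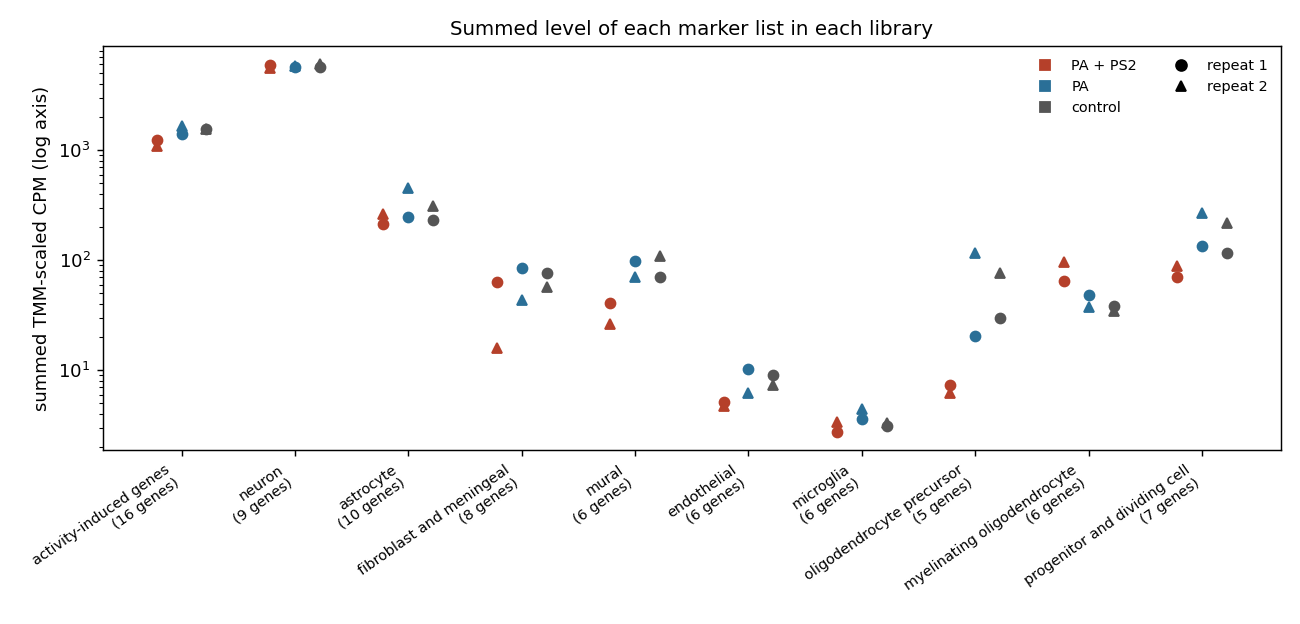
Summed TMM-scaled CPM of each marker list in each library on a log axis, with PA + PS2, PA and control from left to right within a list. The neuron sums lie together (5588 to 6023 CPM), the oligodendrocyte precursor sums of PA + PS2 (7.31 and 6.25 CPM) lie below all others, and the myelinating oligodendrocyte sums of PA + PS2 (65.2 and 95.3 CPM) lie above all others.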

How the data were processed

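RNA from 6 libraries was measured as raw counts per Ensembl gene, deposited by the authors as 1 file per library. Per the submitters' processing notes, the tools were HTSeq 2.0.2, STAR 2.7.5, DESeq2 1.14.1 and cutadapt 4.2 with build mm10, named without settings. Libraries came from an RNeasy micro extraction and a TruSeq kit for total RNA, per the labels' protocols, while the molecule label reads polyA.

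The test was that of edgeR 4.0.16, run under R 4.3.3 (TMM scaling, filterByExpr, robust quasi-likelihood F test over all 6 libraries, Benjamini-Hochberg adjustment over 17299 genes, threshold 0.05); DESeq2 1.42.0 and limma 3.58.1 were alternatives. Standard errors come from the fold change and F. The scripts were tested on simulated data. The repeat number as a block was the planned second fit: deviations of same-numbered libraries correlated across genes at 0.213 (PA + PS2 and PA), 0.3605 (PA + PS2 and control) and 0.3462 (PA and control), so the numbers were taken as pairs. The pairing therefore rests on the libraries themselves, and no label names a litter, day or batch that they share. The correlations alone do not show that equal numbers were pairs. With the filter and all 6 libraries, edgeR called 0 genes without the block, so its calls there depend on this choice. Residual degrees of freedom were 3, and 2 with the block. Replicates of a group were distinct libraries, with a chi-square of 14.59 to 21.06 per degree of freedom, so all 6 counted.

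The 10 genes, the lists and the tests were chosen with earlier results of these data known. Named were the 10 genes, pathway genes called, the 3 most abundant genes of each pathway list and the 5 genes nearest Fst and Fstl1 (log2 CPM with a prior count of 2, mean of at least 5 CPM). Some named genes are not reported here. Within-repeat differences used CPM plus 0.1. Coordinates are from GENCODE M21, and promoter sequences from RefSeq.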

Additional observations from a re-analysis of the deposited data

How the results depend on the processing

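Counts of calls are given for all genes, then the 10 genes, then the 63 pathway genes. Without the repeat number all 9 counts were 0 with TMM and also with RLE size factors, library totals alone, at least 50 counts in 2 libraries, limma-voom or only the 2 groups compared. For PA + PS2 over control they were 425, 3 and 7 with no filter and 130, 3 and 3 with DESeq2. With the replicate block they were 121, 3 and 1; with the block and DESeq2 279, 3 and 4; with the block and only the 2 groups compared 705, 4 and 11; with the block and RLE 112, 3 and 1; with library totals 161, 3 and 1; with at least 50 counts 53, 3 and 0; and with limma-voom 118, 3 and 2. For PA + PS2 over PA they were 501, 4 and 8 with no filter and 200, 3 and 2 with DESeq2. With the replicate block they were 263, 3 and 1; with the block and DESeq2 364, 3 and 7; with the block and only the 2 groups compared 131, 3 and 3; with RLE 245, 3 and 1; with library totals 309, 3 and 3; with at least 50 counts 165, 3 and 1; and with limma-voom 288, 3 and 3. The block with RLE, totals, the stricter filter or limma-voom was added after seeing the data. For PA over control, no filter called 2 genes, the block with DESeq2 1 and the block with only the 2 groups compared 2, with 0 of the 10 and 0 pathway genes. The cause was not tested.

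Leaving out 1 library without the block gave 0 to 29 genes, 0 to 2 of the 10 and 0 pathway genes for PA + PS2 over control, and 0 to 13, 0 and 0 for PA + PS2 over PA; both highest counts came without PA + PS2 repeat 1, where Fstl1 and Inhba passed over control. With the block the ranges were 4 (without control repeat 2) to 942 (without PA + PS2 repeat 1), 1 to 5 and 0 to 11 for PA + PS2 over control, 32 (without PA + PS2 repeat 2) to 1021 (without PA + PS2 repeat 1), 1 to 6 and 0 to 11 for PA + PS2 over PA, and 0 to 35 genes for PA over control. The lone library of a group is then assumed to vary like the others. All alternatives use the same libraries and genes chosen with these contrasts known, so passes of the 10 are a description. Over 26 alternatives the log2 fold change over control stayed between 0.92 and 1.43 for Fst, -0.93 and -0.60 for Fstl1, and -0.79 and -0.58 for Gdf10, and they passed in 15, 15 and 12. Bmp7 for PA over control, 0.12 with all libraries, ran from -0.36 (with the block, without PA repeat 2) to 0.49 with 1 library left out, and was -0.30 without PA repeat 2 and no block.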
